A study of Mus musculus with 27 samples.

Results

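The genes described here are 39 mouse genes of cell proliferation, taken from a list of names. The products of 17, the S-phase members, act in S phase, when DNA is copied, or in the entry into it. The products of 22, the mitotic members, act in G2 or in mitosis, when the chromosomes are separated. All 39 were found by their Entrez identifiers among the 24454 genes of the expression table, and all 39 passed a filter of at least 1 CPM (reads per 1000000 reads assigned to genes) in at least 2 libraries, which left 13270 genes for testing. The rule that names them uses no measured value, although the members were chosen with earlier results of these data known.

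In a dividing cell, E2F factors switch on the genes for DNA replication at the end of G1, so that the MCM helicase can be loaded on origins and nucleotides can be supplied. Later, in G2, the MuvB complex with B-Myb and FoxM1 switches on the genes for mitotic entry, spindle assembly and chromosome segregation. TGFβ is known in epithelial cells as a cytokine that arrests cells in G1, while canonical Wnt ligands are known as mitogens in many epithelia. The RNA of these genes is therefore widely used as a readout of how many cells in a culture are cycling.

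RNA was sequenced from 9 cell lines grown from thoracic mammary tumours of 12-week-old female FVB/N mice that carried the polyoma middle T oncogene under the mammary MMTV promoter. All lines carried mutant alleles of the coactivators Bcl9 and Bcl9L, which link β-catenin to Pygopus; ΔHD1 lacks the Pygopus-binding domain and ΔHD2 the β-catenin-binding domain. The lines were ΔHD1/fl (2 lines) and ΔHD2/fl (2 lines), which kept a floxed allele beside the mutant, and ΔHD1/- (2 lines) and ΔHD2/- (3 lines), in which that allele had been removed with an adenovirus expressing Cre and GFP and GFP-positive cells had been sorted. No line without a mutant allele was analysed here. Each line was measured after 4 days without cytokine, after 3 days of Wnt3a at 100 ng/ml and after 4 days of TGFβ at 2 ng/ml, which gave 27 libraries in 12 groups. Exposure therefore differed in length between the cytokines. A change with Wnt3a also compares day 3 with day 4, and the cytokine and the shorter time cannot be told apart in it. Fibroblasts had been removed from the primary cultures by differential trypsinization. Per the labels, the replicates of a genotype were 2 lines from different mice, so the spread within a group holds differences between tumours; the labels do not say from which mouse the third ΔHD2/- line came. In bulk RNA, fewer cycling cells and less of the RNA in each cell cannot be told apart.

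Libraries held 21.86 to 33.69 M reads, where M stands for 1000000, so a count of 3 reads corresponded to 0.137 CPM or less, and every member had far more reads than that in nearly all libraries. As a check of the labels, Axin2, a direct Wnt target, was between 0.1 and 3.0 CPM in the 9 untreated lines and between 13.5 and 80.8 CPM with Wnt3a. ΔHD1/fl line 2 and ΔHD1/- line 2 stood apart in their cell type markers. Untreated, they had Epcam at 0.1 and 0.0 CPM and Cdh1 at 0.5 and 0.2 CPM, while the keratin Krt14 was at 356 and 223 CPM and Krt8 at 0.3 CPM in the first and 1089 CPM in the second, within the range of the other lines. They had a summed level of 8 epithelial markers of 358 and 1315 CPM against 3779 to 19665 CPM in the other 7 lines, and a summed level of the fibroblast markers of 2649 and 6466 CPM against 1.05 to 219.6 CPM. Lines 2 and 3 of ΔHD2/- resembled each other unusually closely: across tested genes they correlated at 0.993 to 0.997 within a treatment, and other pairs of lines of a genotype at 0.807 to 0.957. The labels give them as different samples and they were treated that way, but that they are independent was not shown, so the number of independent lines may be below 9. Values below are given in a fixed line order: ΔHD1/fl lines 1 and 2, ΔHD1/- lines 1 and 2, ΔHD2/fl lines 1 and 2, and ΔHD2/- lines 1, 2 and 3.

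The S-phase and mitotic members differ in how often they carry certain short sequences around their transcription starts. The letters TTTGAA, read on both strands and known as the CHR element of genes switched on in G2, occurred in a window of 250 bases before to 50 bases after a start in 12 of the 17 mitotic members with a RefSeq window (70.6%), in 2 of 14 S-phase members (14.3%), and in 20.2% of the 27025 genes with a window. An E2F-like word (TTTCCCGC, TTTGGCGC, TTTCGCGC or TTTGCCGC, either strand) occurred in 7 of 14 S-phase members (50%), 1 of 17 mitotic members (5.88%, Cdk1) and 2.6% of all genes. CCAAT occurred in 64.3%, 82.4% and 41.1%. CHR and CCAAT occurred together in 64.7% of the mitotic members and 7.97% of all genes. A match is a description of these letters and not of a bound factor.

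The 250 bases before the start are shown for 2 S-phase and 4 mitotic members, as RefSeq gives them on GRCm38.p6, to let both arrangements be read. Capitals mark matches to the words above on either strand; matching words that overlap run into each other. Mcm5 and Mcm6 encode subunits of the replicative helicase, Cdk1 is the kinase that drives mitotic entry, Ccnb2 encodes its partner cyclin B2, Cdc20 activates the anaphase-promoting complex, and Mki67 encodes the Ki-67 protein that coats mitotic chromosomes.
Mcm5, chr8:75109259-75109508, plus strand: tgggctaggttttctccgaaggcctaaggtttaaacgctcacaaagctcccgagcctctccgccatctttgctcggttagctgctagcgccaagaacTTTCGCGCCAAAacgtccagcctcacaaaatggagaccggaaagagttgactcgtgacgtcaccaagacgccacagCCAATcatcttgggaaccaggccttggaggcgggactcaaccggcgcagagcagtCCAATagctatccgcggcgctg
Mcm6, chr1:128359706-128359955, minus strand: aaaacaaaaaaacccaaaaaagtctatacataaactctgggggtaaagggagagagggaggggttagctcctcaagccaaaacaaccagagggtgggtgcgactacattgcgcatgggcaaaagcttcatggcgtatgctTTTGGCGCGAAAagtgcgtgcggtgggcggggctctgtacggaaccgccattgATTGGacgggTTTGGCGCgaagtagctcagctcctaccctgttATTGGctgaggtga
Cdk1, chr10:69352913-69353162, minus strand: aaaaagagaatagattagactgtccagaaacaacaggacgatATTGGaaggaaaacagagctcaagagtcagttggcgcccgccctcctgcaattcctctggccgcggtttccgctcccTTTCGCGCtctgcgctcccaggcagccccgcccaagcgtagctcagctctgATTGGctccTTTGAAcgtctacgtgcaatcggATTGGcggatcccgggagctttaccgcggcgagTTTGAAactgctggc
Ccnb2, chr9:70421555-70421804, minus strand: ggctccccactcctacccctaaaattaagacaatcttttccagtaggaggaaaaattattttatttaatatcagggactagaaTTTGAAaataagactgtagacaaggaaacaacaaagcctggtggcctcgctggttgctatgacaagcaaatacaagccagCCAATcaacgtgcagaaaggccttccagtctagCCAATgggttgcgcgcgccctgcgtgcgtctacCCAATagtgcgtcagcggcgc
Cdc20, chr4:118437344-118437593, minus strand: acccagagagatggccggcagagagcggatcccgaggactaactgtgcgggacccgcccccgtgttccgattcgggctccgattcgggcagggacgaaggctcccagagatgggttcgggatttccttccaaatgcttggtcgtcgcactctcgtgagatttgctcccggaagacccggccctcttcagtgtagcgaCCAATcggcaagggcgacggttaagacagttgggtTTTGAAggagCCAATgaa
Mki67, chr7:135716380-135716629, minus strand: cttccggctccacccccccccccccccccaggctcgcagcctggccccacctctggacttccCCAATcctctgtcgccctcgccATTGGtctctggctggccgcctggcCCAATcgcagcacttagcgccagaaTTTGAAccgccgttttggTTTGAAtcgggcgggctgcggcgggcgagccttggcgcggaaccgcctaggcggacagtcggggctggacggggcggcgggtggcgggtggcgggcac
Neither of the 2 helicase stretches holds TTTGAA, and all 4 mitotic stretches do. Among these 4, an E2F-like word stands in Cdk1 alone. The stretches were picked to show the arrangements, and other members differ. In the same 250 bases the helicase gene Mcm2 holds TTTGAA and no E2F-like word. Those of Ccnb1, Plk1, Aurka, Bub1 and Cenpe hold no TTTGAA.

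With TGFβ most members had less RNA in 6 of the 9 lines and more RNA in ΔHD2/- lines 2 and 3, while ΔHD1/- line 1 was split, with 19 of 39 lower. The change of a gene in a line is the log2 of CPM + 1 with the cytokine minus that without it, a scale that compresses differences at low levels. The median change of the 22 mitotic members was -2.99 and -0.39 in the ΔHD1/fl lines, -0.05 and -0.65 in the ΔHD1/- lines, -0.56 and -1.83 in the ΔHD2/fl lines, and -0.88, 0.58 and 0.65 in the ΔHD2/- lines. For the 17 S-phase members it was -2.18, -0.25, 0.21, -0.63, -0.29, -1.30, -0.40, 1.03 and 1.04 in the same order. Lines of a genotype could thus differ by more than the genotypes did. Of the 39 members, 39, 34, 19, 37, 38, 39, 38, 7 and 4 were lower with TGFβ than without, while the median of all 13270 genes lay between -0.21 and -0.00 in each line.

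The largest response was that of ΔHD1/fl line 1, where all 39 members were lower. Their median ratio of treated to untreated CPM + 1 was 0.220 for S phase and 0.126 for mitosis, and the members together went from 0.680% to 0.121% of all reads. In ΔHD2/fl line 2 they went from 0.523% to 0.171%. In ΔHD2/- lines 2 and 3, by contrast, the share went from 0.267% to 0.393% and from 0.262% to 0.454%. The remaining lines lay between these, with 0.842% and 0.646% in ΔHD1/fl line 2 and 0.611% and 0.641% in ΔHD1/- line 1. ΔHD2/- lines 2 and 3 began with the smallest untreated shares of the 9 lines.

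**Figure D1:**
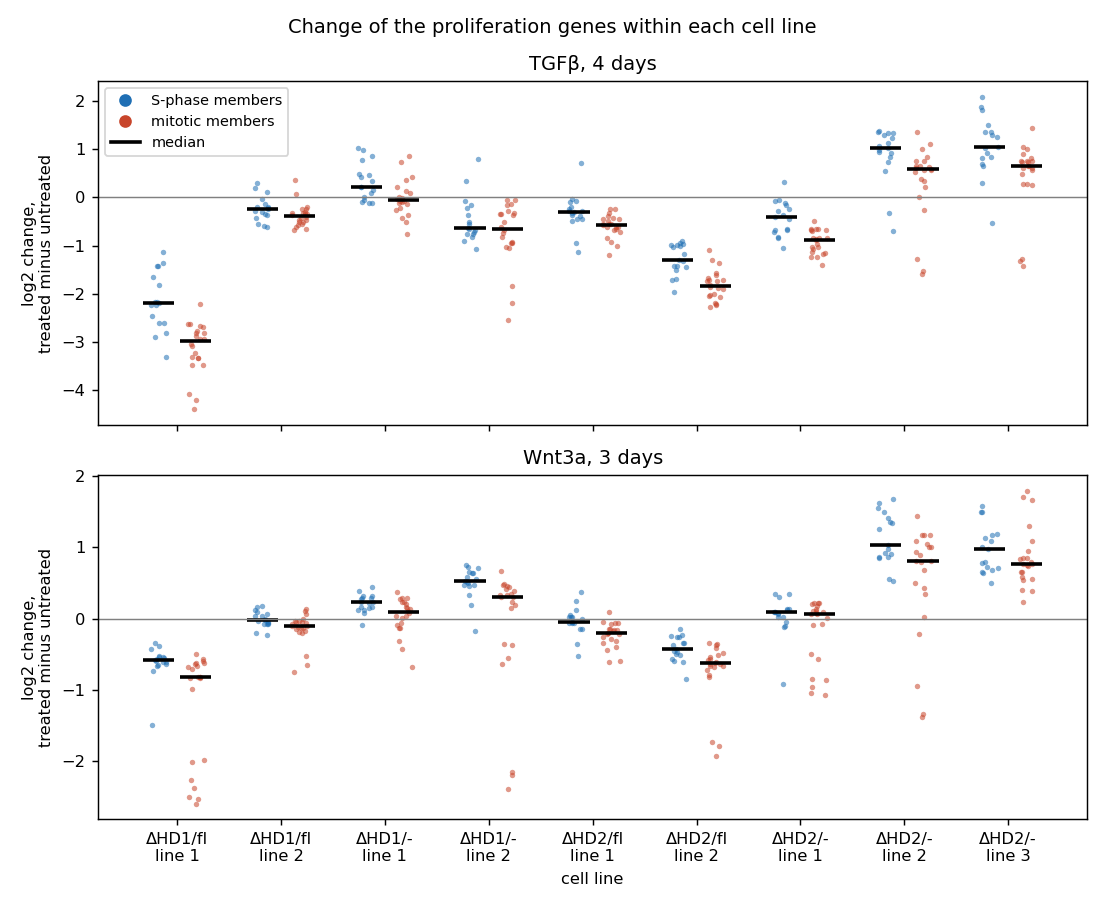
Change of each member in each of the 9 lines with TGFβ (upper panel) and Wnt3a (lower panel), as log2 of CPM + 1 treated minus untreated; points are genes (S-phase blue, mitotic red) and black bars are medians. The mitotic bar lies below the S-phase bar in all 9 lines under both cytokines, by 0.02 to 0.81 with TGFβ and 0.02 to 0.24 with Wnt3a.

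Within every line the mitotic members were shifted lower than the S-phase members. The S-phase median minus the mitotic median was 0.81, 0.14, 0.26, 0.02, 0.27, 0.53, 0.48, 0.45 and 0.39 with TGFβ, a mean of 0.37 ± 0.23 (SD, n = 9 lines), above 0 in 9 of 9 lines (0.37 without ΔHD2/- line 3). The medians themselves averaged -0.31 ± 1.03 for S phase and -0.68 ± 1.15 for mitosis, so the gap between the groups varied far less between lines than the response did. After a correction that removes the dependence of each library on transcript GC content and length, the gap was 0.39 ± 0.23, again above 0 in 9 of 9 lines. No p-value is attached to a summary over chosen genes.

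Averaged over the 4 genotypes, TGFβ lowered 4 of the 39 members at a limma adjusted p of at most 0.05 and a change of at least 2-fold (log2 change of 1), and all 4 were mitotic: Mki67, Cenpf, Cenpe and Ccnb2. Mki67, Cenpf and Cenpe have the longest transcripts of the 39 members, and their GC content lies below the median of tested genes. They also had mean changes of -1.10, -1.16 and -1.20 with Wnt3a, against the same untreated libraries. Between untreated ΔHD2/- lines 2 and 3 they differed by 1.05, 1.29 and 1.21 on the log2 scale. The part that RNA or library quality has in their TGFβ calls was not tested. Lower calls made up 3.56% of the 13270 genes, 472 genes, against 247 higher ones. With the adjusted p alone, 5 mitotic members (adding Cdc20) and 1 S-phase member (E2f2) were lower, against 12.7% of all genes. With cell line as a block, since the same lines received each treatment, 6 mitotic members were called lower, adding Ccna2 and Kif11, against 5.9% of genes. In blocked fits after the GC and length correction described above, 3 members were called lower (Mki67, Cenpe and Cenpf, against 4.34% of genes), while Ccna2 (-0.94, limma adjusted p = 0.0111), Kif11 (-0.90, 0.0126) and Ccnb2 (-0.84, 0.00803) passed the adjusted p but not the 2-fold limit, and with median-of-ratios scaling also 3 (4.54% of genes). By the adjusted p alone the blocked fit had 16 mitotic and 1 S-phase members lower, against 35.5% of genes. The median change was -0.38 for S-phase members, -0.80 for mitotic members and -0.16 for all genes. A single line moved these medians: they were -0.22 and -0.49 without ΔHD1/fl line 1, and -0.635 and -1.10 without ΔHD1/fl line 2. With median-of-ratios scaling of the libraries the S-phase, mitotic and all-gene medians were -0.22, -0.63 and -0.02, and higher and lower calls over all genes were then even, with 318 of 633 called genes higher.

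Mki67 (chr7:135689784-135716450, GRCm38) was the member that fell most. Its levels without cytokine were 249.7, 269, 186, 330.2, 219, 309.5, 254, 353 and 169.9 CPM, and with TGFβ they were 10.9, 202, 173, 71.4, 95.3, 66, 107, 144 and 67.9 CPM. All 9 lines were lower with TGFβ than without, but the ranges of the 2 conditions overlapped because ΔHD1/fl line 2 and ΔHD1/- line 1 moved little. The mean change was -1.63 (SE 0.44, limma adjusted p = 0.0176, and 0.00313 with the block). Over the alternatives of the fit its adjusted p ranged from 0.00032 to 0.110.

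Cenpf and Cenpe encode proteins of the outer kinetochore, and CENP-E is the motor that carries chromosomes to the spindle equator. Cenpf (chr1:189640606-189688107) had 49.1, 30.0, 25.4, 36.6, 32.3, 50.3, 40.0, 102 and 41.1 CPM untreated and 1.98, 18.4, 23.3, 5.47, 17.5, 19.9, 17.6, 33.1 and 14.7 CPM with TGFβ. It was lower in 9 of 9 lines, by a mean of -1.54 (SE 0.39, limma adjusted p = 0.0122, 0.00323 with the block, range over alternatives 0.000689 to 0.080). Cenpe (chr3:135212563-135273540) had 42.5, 43.3, 23.7, 54.4, 35.7, 48.8, 43.9, 75.4 and 32.1 CPM untreated and 1.35, 33.9, 32.0, 14.6, 21.5, 18.5, 19.2, 25.7 and 12.7 CPM with TGFβ. Its exception was ΔHD1/- line 1, where it was higher with TGFβ. The mean change of Cenpe was -1.33 (SE 0.42, limma adjusted p = 0.0398, 0.00906 with the block, range over alternatives 0.000784 to 0.184). In ΔHD2/- lines 2 and 3, where most members were higher with TGFβ, Mki67, Cenpf and Cenpe were the 3 lowest-ranking members, at -1.28 to -1.59 and -1.27 to -1.42.

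The cyclins and kinases of mitotic entry followed the lines more closely. Ccnb2 (chr9:70407689-70421554) had 67.8, 97.5, 115, 92.5, 94.9, 88.1, 105, 40.3 and 45.7 CPM untreated and 7.15, 63.8, 67.9, 47.5, 64.3, 25.9, 43.8, 46.7 and 55.6 CPM with TGFβ. It was lower in the first 7 lines and higher in ΔHD2/- lines 2 and 3. Its mean change was -1.02 (SE 0.34, limma adjusted p = 0.0474, 0.00382 with the block, range over alternatives 0.000364 to 0.196). Ccna2, which encodes cyclin A2 of S phase and G2, went from 201, 321, 252, 325, 202, 162, 203, 75.6 and 84.2 CPM to 17.1, 202, 177, 156, 107, 33.6, 76.5, 116 and 141 CPM. Its mean change of -1.11 (SE 0.39) had a limma adjusted p of 0.0618 without the block and 0.00577 with it. Part of the Ccna2 locus overlaps Exosc9 on the genome. Ccnb1 (cyclin B1), Cdk1 and Plk1 had mean changes of -0.79, -0.57 and -0.72, below the 2-fold limit.

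The motor, checkpoint and passenger genes were of the same order. Kif11, the motor that pushes spindle poles apart, went from 88.6 to 7.86 CPM in ΔHD1/fl line 1 and from 101 to 23.8 CPM in ΔHD2/fl line 2, but only from 146 to 105 CPM in ΔHD1/fl line 2. Its mean change was -1.05 (SE 0.44), with limma adjusted p = 0.113 without the block and 0.0114 with it. Aurkb, the kinase of the chromosomal passenger complex, and Birc5, its survivin subunit, had mean changes of -0.94 and -0.92. Bub1b, a spindle checkpoint kinase, and Cdc20, its target, had -0.81 and -0.85. Cdc20 passed the adjusted p but not the 2-fold limit (SE 0.25, limma adjusted p = 0.0276). By role, the median change was -1.23 for Mki67 and Top2a, -0.76 for the 6 cyclins and entry kinases, -0.81 for the 7 spindle and kinetochore genes and -0.85 for the 5 genes of the passenger complex and mitotic exit. For the transcription factors that drive this programme the change was -0.61 for Foxm1 and -0.42 for Mybl2, which encodes B-Myb.

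Among the S-phase members, none was called in this comparison, in the main fit or with the block, although 15 of 17 were lower in 5 or more lines. The share of all genes lower in as many lines is not given here, and the median of all genes was itself below 0 in each line. The unadjusted p was under 0.05 for 2 of 17 S-phase and 15 of 22 mitotic members, against 31.3% of all genes, and edgeR on recovered reads called 1 member, Cenpf, among 6.44% of genes. Origin licensing and helicase genes had a median change of -0.38, with -0.35 for Mcm2, -0.70 for Mcm5, -0.35 for Cdc6, the loader of the helicase, and -0.42 for Cdt1, its partner. Mcm5 had 299.7, 385, 407, 253, 381, 235, 237, 46.2 and 64.0 CPM untreated and 29.3, 255, 381, 143, 292, 71.5, 151, 119 and 153 CPM with TGFβ. Mcm5 thus went the same way as Ccnb2 in each line, lower in the first 7 and higher in the last 2.

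Pcna, the sliding clamp of the replication fork, had a mean change of -0.51, Tyms, which makes thymidylate, -0.55, and Rrm2, the small subunit of ribonucleotide reductase, 0.04. Rrm2 went from 233, 205, 137, 126, 211, 174, 200.4, 31.6 and 33.2 CPM to 37.4, 187, 269.9, 159.9, 345, 89.4, 166, 83.0 and 125 CPM, higher in 5 lines and lower in 4. Ccne1, which encodes cyclin E1 and acts before replication starts, had the highest mean change of all members, 0.27. It went from 38.1, 29.1, 18.7, 19.3, 25.3, 32.0, 29.6, 4.41 and 4.35 CPM to 13.7, 36.3, 38.8, 34.1, 24.8, 15.6, 37.0, 12.7 and 21.8 CPM. Rrm2 and Ccne1 were the 2 S-phase members that were lower in fewer than 5 lines. Its relative Ccne2 had -0.66, E2f1 -0.22 and E2f2 -0.87 (SE 0.29, limma adjusted p = 0.0456, under the 2-fold limit).

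**Figure D2:**
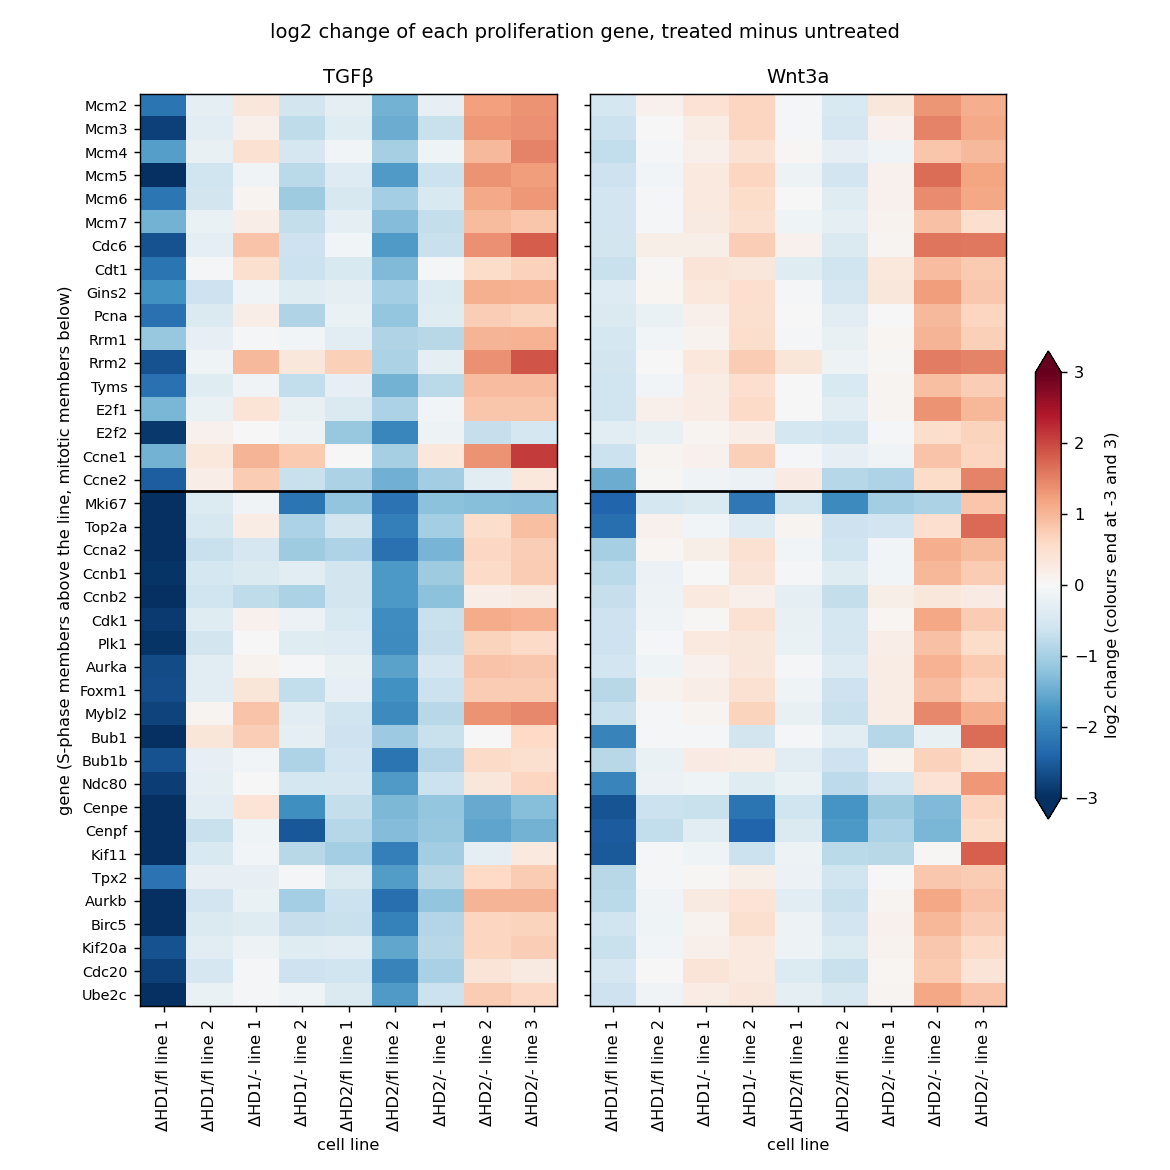
Change of each of the 39 members (rows, S-phase above mitotic) in each of the 9 lines (columns) with TGFβ and with Wnt3a, as log2 of CPM + 1 treated minus untreated, with colours that end at -3 and 3. Under TGFβ ΔHD1/fl line 1 is the darkest column, and in ΔHD2/- lines 2 and 3 most rows are higher while Mki67, Cenpe and Cenpf are lower.

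Within a genotype, no member was called for TGFβ by limma without the block in any of the 4 genotypes. The share of all tested genes that was called was 0.211% for ΔHD1/fl, 1.43% for ΔHD1/-, 0.286% for ΔHD2/fl and 0.806% for ΔHD2/-. The unadjusted p was under 0.05 for 22, 0, 2 and 1 of the 39 members, against 9.5%, 13.4%, 8.71% and 10.8% of all genes, and edgeR called 0 members in each. Median changes of S-phase and mitotic members were -1.23 and -1.72 in ΔHD1/fl, -0.08 and -0.34 in ΔHD1/- (0.16 and -0.10 with median-of-ratios scaling), -0.79 and -1.14 in ΔHD2/fl, and 0.57 and 0.13 in ΔHD2/-. With 2 lines, each median lay between the values of the lines given above. In ΔHD2/- the S-phase and mitotic medians were 0.32 and -0.075 without line 2, and 0.34 and -0.15 without line 3. Without line 1 they were 1.055 and 0.655, and with median-of-ratios scaling 0.68 and 0.24. With the block, 6 members were lower in ΔHD1/fl, where 3.07% of genes were called lower. These were Ccna2 (-2.07, SE 0.58), Ccnb2 (-1.84), Plk1 (-1.75), Ccnb1 (-1.73), Cdc20 (-1.65) and the S-phase member Gins2 (-1.22, SE 0.34), a subunit of the GINS complex at the fork, with limma adjusted p from 0.0353 to 0.0462. Under some alternatives the adjusted p of these members reached 1.0. With the block Ccne1 was higher in ΔHD2/- (1.25, SE 0.35, limma adjusted p = 0.0296), where 2.25% of genes were called higher.

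The difference in TGFβ response between each recombined genotype and its fl genotype had a median over S-phase and mitotic members of 1.02 and 1.35 for ΔHD1, and of 1.23 and 1.27 for ΔHD2. In ΔHD1 the values rested on single lines: they were 0.135 and 0.059 without ΔHD1/fl line 1, 2.08 and 2.72 without ΔHD1/fl line 2, 0.62 and 1.04 without ΔHD1/- line 1, and 1.54 and 1.70 without ΔHD1/- line 2. In ΔHD2 they were 1.73 and 1.93 without ΔHD2/fl line 1, and 0.86 and 0.61 without ΔHD2/fl line 2. No member was called for this difference by limma, where 0.00754% of genes were called for ΔHD1 and 0.0301% for ΔHD2. The unadjusted p was under 0.05 for 0 and 2 members, against 0.98% and 1.35% of genes, and edgeR called 0 of all genes in either. The responses of the genotypes were therefore not shown to differ for any single member.

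With Wnt3a the mitotic median was nearer to 0 than with TGFβ in 6 of 9 lines, and its sign differed between lines. The median change was -0.58, -0.02, 0.23, 0.53, -0.05, -0.43, 0.09, 1.03 and 0.97 for S-phase members and -0.82, -0.10, 0.09, 0.30, -0.20, -0.63, 0.07, 0.80 and 0.77 for mitotic members. The 4 lines with an fl allele all lay below 0 and the 5 recombined lines all above, except that with median-of-ratios scaling the S-phase median was 0.02 in ΔHD1/fl line 2 and 0.01 in ΔHD2/fl line 1. Members lower than without cytokine numbered 39, 29, 8, 8, 31, 39, 13, 4 and 0 of 39. Again the mitotic median was below the S-phase median in 9 of 9 lines, by a mean of 0.16 ± 0.07 (SD, n = 9 lines), or 0.20 ± 0.12 after the GC and length correction. The untreated libraries are the same as those of the TGFβ comparison, taken after 4 days against 3 days with Wnt3a.

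No member was called for the mean response to Wnt3a, where limma called 3 genes (0.0226%), nor with the block, where it called 0.241% of genes. The unadjusted p was under 0.05 for 3 of the 39 members without the block, against 4.63% of genes. EdgeR also called 0 members, and 3 of all genes. The median change was 0.12 for S-phase members, 0.00 for mitotic members and -0.06 for all genes. Without ΔHD2/- lines 2 and 3 the member medians were -0.015 and -0.14, and with median-of-ratios scaling 0.19 and 0.07. Leaving out 1 line put the S-phase median between 0.066 (without ΔHD2/- line 2) and 0.20 (without ΔHD1/fl line 1). Rrm2 had the highest mean change, 0.35, and Mcm2, Cdc6 and Pcna had 0.25, 0.30 and 0.10. Ccnb1, Cdk1, Plk1, Aurkb, Birc5 and Foxm1 all lay between 0.01 and 0.05. Single lines reached 1.79 (Kif11 in ΔHD2/- line 3) and -2.59 (Cenpe in ΔHD1/fl line 1).

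Within genotypes, the median changes with Wnt3a of S-phase and mitotic members were -0.30 and -0.46 in ΔHD1/fl, 0.41 and 0.23 in ΔHD1/-, -0.20 and -0.38 in ΔHD2/fl, and 0.67 and 0.54 in ΔHD2/-. With 2 lines these again lay between the line values above, the smaller in size being -0.02 and -0.10 in ΔHD1/fl, 0.23 and 0.09 in ΔHD1/-, and -0.05 and -0.20 in ΔHD2/fl. Without line 1 the ΔHD2/- medians were 1.03 and 0.83. No member was called by limma in any genotype, where 0.0151%, 0.00754%, 0.113% and 0.00754% of genes were called. The unadjusted p was under 0.05 for 0, 0, 0 and 1 member, against 1.6%, 0.203%, 1.31% and 0.934% of genes. EdgeR called no member, and 2, 0, 0 and 1 of all genes. Members that were lower in all fl lines and higher in all recombined lines numbered 23 of 39 in the ΔHD1 family (8.45% of all genes) and 21 of 39 in the ΔHD2 family (5.3% of all genes), with none the other way round. Plk1, for example, went from 160.2 to 104 and from 167 to 161 CPM in the ΔHD1/fl lines, and from 201 to 246 and from 160.1 to 202 CPM in the ΔHD1/- lines. In ΔHD2 it went from 171 to 149 and from 139 to 97.4 CPM in the fl lines, and from 162 to 186, 73.3 to 136 and 93.6 to 138 CPM in the recombined lines. As a test of the difference in response, no member was called by limma in ΔHD1 (0% of genes) or ΔHD2 (0.0151% of genes). In either, 0 members had an unadjusted p under 0.05 (0.113% and 0.558% of genes), and edgeR called 0 of all genes.

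Mki67, Cenpe and Cenpf departed from the other members with Wnt3a, as they did in ΔHD2/- lines 2 and 3 with TGFβ. With Wnt3a, Mki67 had 47.5, 188, 137, 73.6, 143, 81.1, 123, 183 and 302 CPM. Against the untreated levels it was lower in 8 of 9 lines and higher in ΔHD2/- line 3. Cenpf had 7.89, 17.4, 20.3, 6.19, 23.5, 14.6, 20.1, 38.6 and 60.4 CPM with Wnt3a, and Cenpe 6.21, 27.3, 14.5, 11.2, 23.4, 13.5, 20.5, 29.3 and 50.7 CPM. Both were also lower in 8 lines and higher in ΔHD2/- line 3, and Bub1 was the only other member lower in 8. Mean changes were -1.10 (SE 0.44) for Mki67, -1.20 (SE 0.42) for Cenpe and -1.16 (SE 0.39) for Cenpf. Their limma adjusted p values were 0.982, 0.866 and 0.80, and 0.187, 0.152 and 0.152 with the block, so that none was called.

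These 3 genes have the longest transcripts of the 39, at 10061, 7910 and 11130 bases, with Rrm1 next at 5475. Their GC content of 46.6% (Mki67), 42.9% (Cenpe) and 43.3% (Cenpf) lies below the median of 49.8% over tested genes. In some lines other genes of that kind were lower with Wnt3a too. In ΔHD1/fl line 1 the median change of genes under 45% GC was -0.60 against -0.08 for the rest, and that of genes over 8000 bases was -0.41, while in ΔHD2/- line 3 the same medians were 0.19, -0.05 and 0.01. After the correction for GC content and length the mean changes over the 4 genotypes were -0.96, -1.0 and -0.96 and each gene was still lower in 8 of 9 lines. The part that RNA or library quality has in these values was not tested.

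**Figure D3:**
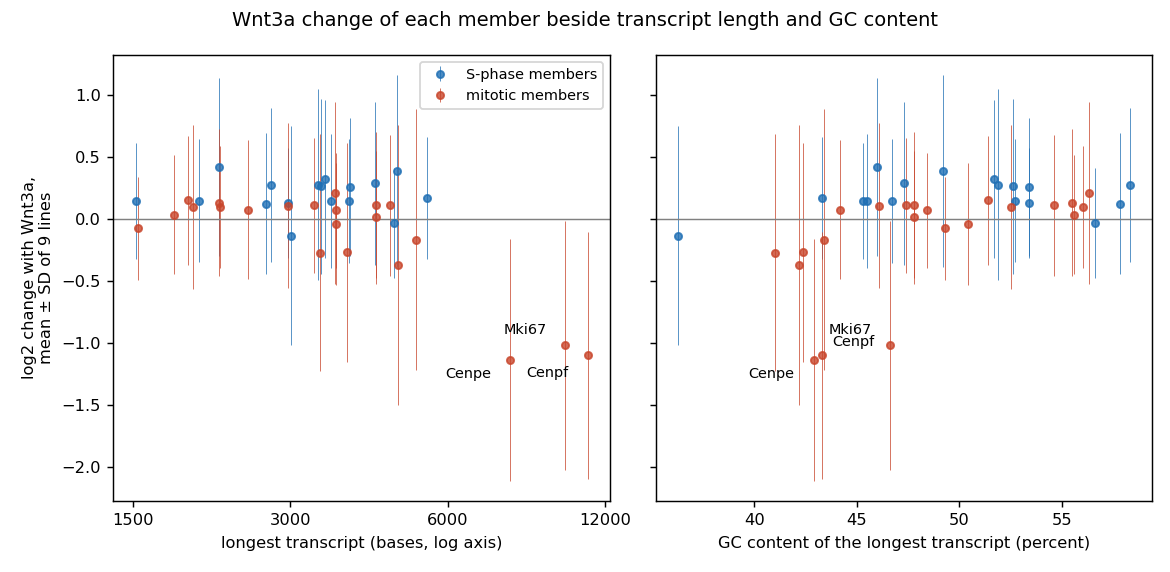
Change of each member with Wnt3a, as the mean of 9 lines with bars of 1 SD, against the length of its longest transcript (log axis, left) and its GC content in percent (right), with S-phase members in blue and mitotic members in red. Mki67, Cenpe and Cenpf stand alone at the long end, with mean changes near or below -1, while the other 36 members lie closer to 0.

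Without cytokine, most members had similar levels in 7 lines and much less RNA in ΔHD2/- lines 2 and 3. The median level of the 39 members, as log2 minus the mean of the 9 lines, was 0.40, 0.50, 0.32, 0.24, 0.23, 0.01, 0.19, -1.03 and -0.86. Mcm2 had 334, 286, 225, 267, 186, 171 and 182 CPM in the first 7 lines and 56.7 and 64.6 CPM in the last 2. Ccne1 had 18.7 to 38.1 CPM against 4.41 and 4.35 CPM, and Cdc6 39.2 to 119 CPM against 11.6 and 12.4 CPM. Both lines were below all 7 others for 16 of 17 S-phase members (94.1%), all but E2f2, and for 19 of 22 mitotic members (86.4%), all but Mki67, Cenpe and Cenpf, against 17.3% of all tested genes. The ratio of their mean to the median of the other lines had a median of 0.301 over S-phase members, 0.483 over mitotic members and 0.969 over all genes. These lines were grouped after their values were seen, so the comparison has no test.

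After TGFβ the same ratio was 0.902 and 1.09, and no member was below all 7 others in both lines. After Wnt3a it was 0.73 and 0.86, with 6 S-phase members and 1 mitotic member below all others. The members of these 2 lines were thus nearer to the other lines under each cytokine than without one. Top2a, the topoisomerase that untangles sister chromatids, showed the range of levels: it had 597, 1681, 332, 893, 515, 466, 530.2, 217 and 141 CPM untreated and 72.1, 1213, 388, 465, 350.3, 111, 260.0, 315 and 265 CPM with TGFβ. Lines 2 and 3 of ΔHD2/- also differed from each other for some mitotic members. Untreated, line 2 was above line 3 by 1.05 for Mki67, 1.21 for Cenpe and 1.29 for Cenpf on the log2 scale, and Bub1 was at 18.9 against 7.87 CPM and Kif11 at 71.4 against 35.1 CPM. The median difference was 0.25 over genes under 45% GC, 0.13 over genes longer than 8000 bases and -0.01 over all genes.

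**Figure D4:**
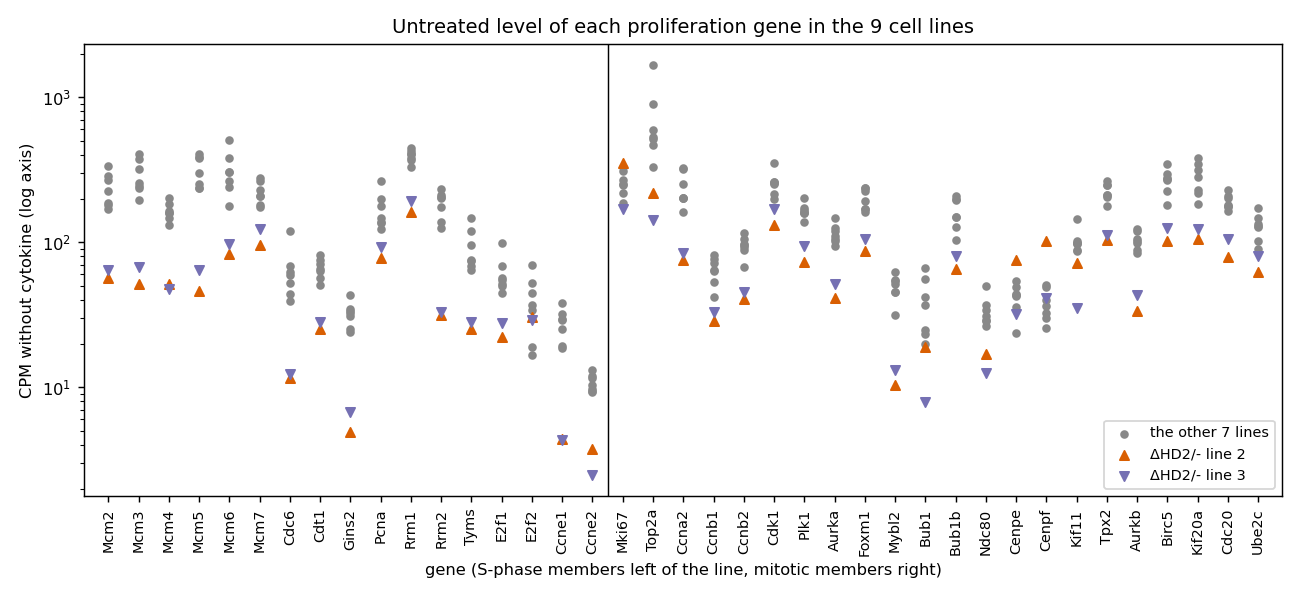
Untreated level of each of the 39 members in CPM (log axis) in the 9 lines, with the 7 other lines in grey, ΔHD2/- line 2 as orange triangles pointing up and line 3 as purple triangles pointing down. Both triangles lie below all grey points for 35 of the 39 genes, and Mki67, Cenpe, Cenpf and E2f2 are the exceptions.

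Set by genotype, untreated ΔHD2/- lines had medians of -0.90 for S-phase and -0.60 for mitotic members against ΔHD2/fl lines, but no member was called by limma, where 0.55% of genes were. The unadjusted p was under 0.05 for 6 members, 5 of them S-phase, against 8.61% of genes. EdgeR called 0 members, and 4 of all genes. ΔHD2/- line 1 was at the level of the ΔHD2/fl lines, with Mcm2 at 182 CPM against 186 and 171 CPM. Without line 1, 3 members were called lower, against 3.78% of genes, and the medians were -1.47 and -0.93. Untreated ΔHD1/- lines against ΔHD1/fl lines had medians of -0.33 and -0.18 (mitotic -0.039 without ΔHD1/fl line 2 and -0.065 without ΔHD1/- line 2). No member was called by limma (0.0678% of genes), and 0 had an unadjusted p under 0.05 (4.85% of genes). EdgeR called 0 of all genes.

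Other genes of the same programmes, taken from general cell cycle lists, had medians below 0 with TGFβ. Of 32 further S-phase genes, 2 were called lower by limma (3.56% of all genes were), Cenpu (-1.13, adjusted p = 0.0310), a centromere component, and E2f8 (-1.08, adjusted p = 0.0472), a repressor of the E2F programme. Their median was -0.56. Of 39 further G2 and mitosis genes, 4 were called lower: Anln (-1.25, adjusted p = 0.0288), the scaffold of the cleavage furrow, Cdca3 (-1.16, adjusted p = 0.0112), Hmgb2 (-1.11, adjusted p = 0.0443) and the phosphatase Cdc25c (-1.07, adjusted p = 0.0144). Their median was -0.78, from -1.43 for Smc4, a condensin subunit that was called with the block alone, to 0.48 for Jpt1. With the block, 2 and 9 genes of these lists were called lower, against 5.9% of all genes. After the GC and length correction with the block, of the 6 named calls only that of Anln was kept, and the others were between -0.99 (Cenpu) and -0.90 (Cdc25c), under the 2-fold limit. With Wnt3a, 0 genes of either list were called by limma, with 1 of each list at an unadjusted p under 0.05, against 4.63% of all genes.

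Of 15 tested brakes of the cell cycle and quiescence genes, 1 was called higher with TGFβ and 4 lower, against 1.86% and 3.56% of all genes. Cdkn1a, the inhibitor p21, rose by a mean of 1.04 (limma adjusted p = 0.0390) and went from 133, 82.6, 163, 169, 299, 324, 117, 251 and 254 CPM to 571, 273, 183, 371, 397, 454, 304, 502 and 552 CPM. It was higher in 9 of 9 lines, the ΔHD2/- lines 2 and 3 included. Cdkn2c, the inhibitor p18 and itself an E2F target, fell by 1.87 on the log2 scale (limma adjusted p = 0.000997), Gas1 by a mean change of -3.39 (adjusted p = 0.0191) and Cdkn1b, the inhibitor p27, by -1.04 (adjusted p = 0.00540). Cdkn2d was the remaining one, at -1.03. The calls of Cdkn1b and Cdkn2d were lost after the GC and length correction with the block, at -0.93 and -0.84. Cdkn2b, the inhibitor p15, was listed at 0 in ΔHD1/fl line 2 and both ΔHD1/- lines under all 3 treatments, and went from 33.9, 17.4, 34.6, 65.5, 15.8 and 18.2 CPM to 312, 61.5, 123, 147, 43.0 and 36.9 CPM in the other 6 lines. It was called with the block alone (1.14, limma adjusted p = 0.00163). All 6 of these lines were higher with TGFβ.

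The ΔHD1 lines 2, with Epcam and Cdh1 near 0 and the highest summed fibroblast markers, had member changes with TGFβ of -0.25 and -0.39 (S-phase and mitotic medians in ΔHD1/fl line 2) and -0.63 and -0.65 (ΔHD1/- line 2). Without both of these lines, 12 members were called lower in the mean response (5.44% of all genes), and 13 with the block (7.57% of genes). Without ΔHD1/fl line 2 alone 16 were called lower (4.95% of genes). Without ΔHD2/- lines 2 and 3 the count was 0 (2.96% of genes), or 12 with the block (6.62% of genes). The part of the marker differences in these values was not tested.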

How the data were processed

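Stranded poly(A) libraries were sequenced as single reads. The authors aligned them to mm10 with STAR, counted unique hits in RefSeq exons with QuasR and tested them with edgeR; the strand setting of the counting is not given in the sources used here, so reads of members that overlap another gene (such as Mcm7, Gins2, Ccne2, Ccna2 and Cdc20) are less certain. The deposited values are CPM per gene. All values (100%, within 0.1 read) were whole reads once multiplied by the library total, so read numbers were recovered. Totals were 21.86 to 33.69 M reads (median 25.96 M, M being 1000000 reads). A floor of 3 reads covers counting error only.

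Identifiers matched symbols for 24374 genes and did not for 80. The 13270 genes that reached 1 CPM in 2 or more libraries were fitted on log2(CPM + 1) with limma 3.58.1 (R 4.3.3, trend and robust) as 12 group means from all 27 libraries. Called genes had an adjusted p (Benjamini-Hochberg) no higher than 0.05 and a log2 fold change of 1 or more in either direction. A mean response is the mean over 4 genotypes. P-values measure the spread between lines. Libraries of the same cell line deviated together from their group means (correlation 0.509 to 0.94), so cell line was also fitted as a block. The members and the other gene lists were chosen with earlier results of these data known. Members named were at least 1 per role, every called member and the extremes.

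Tried besides were no filter, a pseudocount of 0.1, scaling by median of ratios, only the compared groups, edgeR 4.0.16 on recovered reads, other thresholds, the block and leaving out each line. Chosen after seeing the data were averaging ΔHD2/- lines 2 and 3, leaving out pairs of lines, leaving out lines with the block, and a correction of each library over 20 GC and 10 length classes (98% of tested genes had a transcript). Promoter windows are RefSeq on GRCm38.p6, with 31 of the 39 members matched.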

Additional observations from a re-analysis of the deposited data

Results flagged for a closer look

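The median change of the members with Wnt3a went opposite ways in fl and recombined lines of both families: every fl line lay below 0 and every recombined line above. The recombined minus fl difference was 0.67 for S-phase and 0.65 for mitotic members in ΔHD1, and 0.94 and 0.96 in ΔHD2. In ΔHD1 they leaned on the fl lines: the fitted differences of 0.69 and 0.655 became 0.39 and 0.33 without ΔHD1/fl line 1, and 1.01 and 1.05 without ΔHD1/fl line 2. The differences were not tested as summaries, and no single member passed the test of the difference. The S-phase pattern did not hold in every line with median-of-ratios scaling (0.02 in ΔHD1/fl line 2 and 0.01 in ΔHD2/fl line 1), nor with the GC and length correction (0.03 and 0.02), while the mitotic one did. Both ΔHD2/- lines with the largest values, lines 2 and 3, had a correlation across genes of 0.997 with each other under Wnt3a.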

How the results depend on the processing

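The mean over lines of each line's S-phase median minus its mitotic median stayed above 0 with TGFβ (0.318 to 0.416) and Wnt3a (0.147 to 0.204), and untreated line medians kept their sign. The number of members called for the mean TGFβ response was 4, and the alternatives moved it. It was 2 without the filter (646 of all genes called) and with median-of-ratios scaling (633). Only the compared groups (671) and ΔHD2/- lines 2 and 3 averaged (569) also gave 2. It was 1 with edgeR (Cenpf, with 855 of all genes called), and 15 at an unadjusted p with a 1.5-fold limit. Leaving out 1 line gave 0 to 16 (0 without ΔHD1/- line 2 or ΔHD2/fl line 2, 16 without ΔHD1/fl line 2), or 2 to 17 with the replicate block, which itself gave 6 (3 with the GC and length correction, where Ccna2, Ccnb2 and Kif11 at -0.94, -0.84 and -0.90 missed the 2-fold limit alone, and 3 with median-of-ratios scaling, 11 without ΔHD2/fl line 1, and 7 without ΔHD1/- line 1, ΔHD2/- line 2 or ΔHD2/- line 3). Without both ΔHD1 lines 2 it was 12 (13 with the block), and without ΔHD2/- lines 2 and 3 it was 0 (12 with the block). For Wnt3a the count of 0 became 3 at an unadjusted p with a 1.5-fold limit, 1 with the block and without both ΔHD1 lines 2, and 0 to 3 when 1 line was left out, with or without the block.

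Within genotypes, all counts were 0 in the main analysis. TGFβ in ΔHD1/fl gave 6 with the block, 22 at the unadjusted threshold and 0 to 13 when 1 line was left out. TGFβ gave 2 at the unadjusted threshold in ΔHD2/fl, and in ΔHD2/- 1 there, 1 with the block and 0 to 1 when 1 line was left out. At the unadjusted threshold Wnt3a in ΔHD2/- gave 1, the difference in TGFβ response of ΔHD2 gave 2, and untreated ΔHD2/- against ΔHD2/fl gave 6 (0 to 3 when 1 line was left out). No member changed sign while called. Of 32 alternatives, Mki67 and Cenpf lost their TGFβ call in 5 each, Cenpe in 16 and Ccnb2 in 21. The cause of these changes was not tested.

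The block changed no other count of members. Fl and recombined lines of the same number correlated at 0.087 to 0.472, over 0.1 in the untreated pairs but not in every treated one, and the labels do not say whether they share a tumour, so the numbers were not taken as pairs. With that number as a block, 0 members were called between untreated fl and recombined lines. There were 2 or 3 lines per genotype, and members had reads far above the floor. What limited the precision was not tested.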
